A study of Mus musculus with 369 samples.

Results

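The Rab family comprises the small GTPases of membrane traffic. Its members were taken here by symbol, as every gene of the count table named Rab with a number and at most 1 letter and 1 further digit. This gave 57 of 23337 genes, of which 45 reached 5 CPM (gene counts scaled to a total of 1000000 per group) in at least 1 group and are called measured. The samples were single microglia from whole brains of male C57BL/6J mice at postnatal day 7, sequenced by Smart-seq2, a full-length method without molecular identifiers. A cell was either wild type or Trem2 knockout, and it was sorted either through a CD45low CD11b+ gate, called unselected, or through that gate with Gpnmb and Clec7a protein on the surface, called gated. The labels' 3 quality criteria were met by 78 unselected and 90 gated cells of wild type and by 90 unselected and 76 gated cells of the knockout. Where 4 values stand in a row, they follow this order. All cells of a group came from 1 plate and no animal was named, so each group counted as 1 sample, and plate, genotype and gate cannot be told apart. No test between groups was possible. Intervals (95%, exact Poisson for CPM and Clopper-Pearson for shares) cover counting error only.

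Rab proteins switch between a GTP-bound form on membranes and a GDP-bound form in the cytosol. Exchange factors load GTP, GTPase-activating proteins (GAPs) end the active state, and effectors such as tethers and motor adaptors bind the active form. Each Rab marks a set of organelles, and microglia use the endosomal and lysosomal members when they take up and digest cell debris. The members were ordered by the compartment each is best known for: early endosome (8), recycling (8), lysosome and related organelles (11), endoplasmic reticulum (ER) and Golgi (13), exocytic vesicles (13) and other or less settled roles (4).

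Trem2 itself was at 1115, 1604, 229 and 413 CPM, so counts remained in cells labelled knockout. The labels do not say which part of the gene was deleted. Gpnmb was at 216, 1697, 85.2 and 4233 CPM and Clec7a at 53.5, 346, 40.9 and 594 CPM, higher in the gated group of each genotype. Passing cells held 157653 to 1051282 gene counts, and the median number of detected genes was 2607.5, 3162.5, 2184.0 and 3995.0. All 9 microglial markers had counts in each group, with sums of 46763, 31839, 46452 and 23905 CPM, and 3 of them in wild type and 6 in knockout were at least 2-fold lower with the gate. The 7 neuronal markers summed to between 0 and 5.34 CPM. Red blood cell markers summed to 115, 404, 0.826 and 4.56 CPM and differed by genotype. The part of these markers in the Rab values was not tested. Of 10 markers of border-associated macrophages, 9 were at least 2-fold higher in the gated group of each genotype, and the list summed to 846, 2040, 902 and 2095 CPM. Among passing cells, 12, 40, 15 and 61 had at least 3 of these 10 markers after thinning, and 45, 43, 42 and 36 had 2 or 3, next to that limit.

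Scaled to gene counts, the family's summed level was similar in the 4 groups. The family had 130718, 192198, 224092 and 202531 counts, beside 1547204, 1542696, 3174161 and 1115282 spike-in counts. Relative to spike-ins its level was therefore not similar, and the values below hold for CPM only. The 57 genes together took 3354, 3575, 3938 and 4011 CPM, and the medians over single cells were 3342, 3463, 3830 and 3998 CPM. Single cells ranged in wild type from 173 to 5311 CPM when unselected and from 1260 to 6359 CPM when gated. In the knockout they ranged from 1174 to 10354 CPM and from 2165 to 7728 CPM, so the groups overlapped widely. With every cell thinned to 100000 gene counts, the median cell had 12, 15, 10 and 19 members with a count. The number of all genes with a count moved with it, at medians of 2288.0, 2631.5, 1957.5 and 3467.0. Pooled over the thinned cells of a group, the members were 0.48%, 0.54%, 0.52% and 0.53% of the genes detected.

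**Figure D1:**
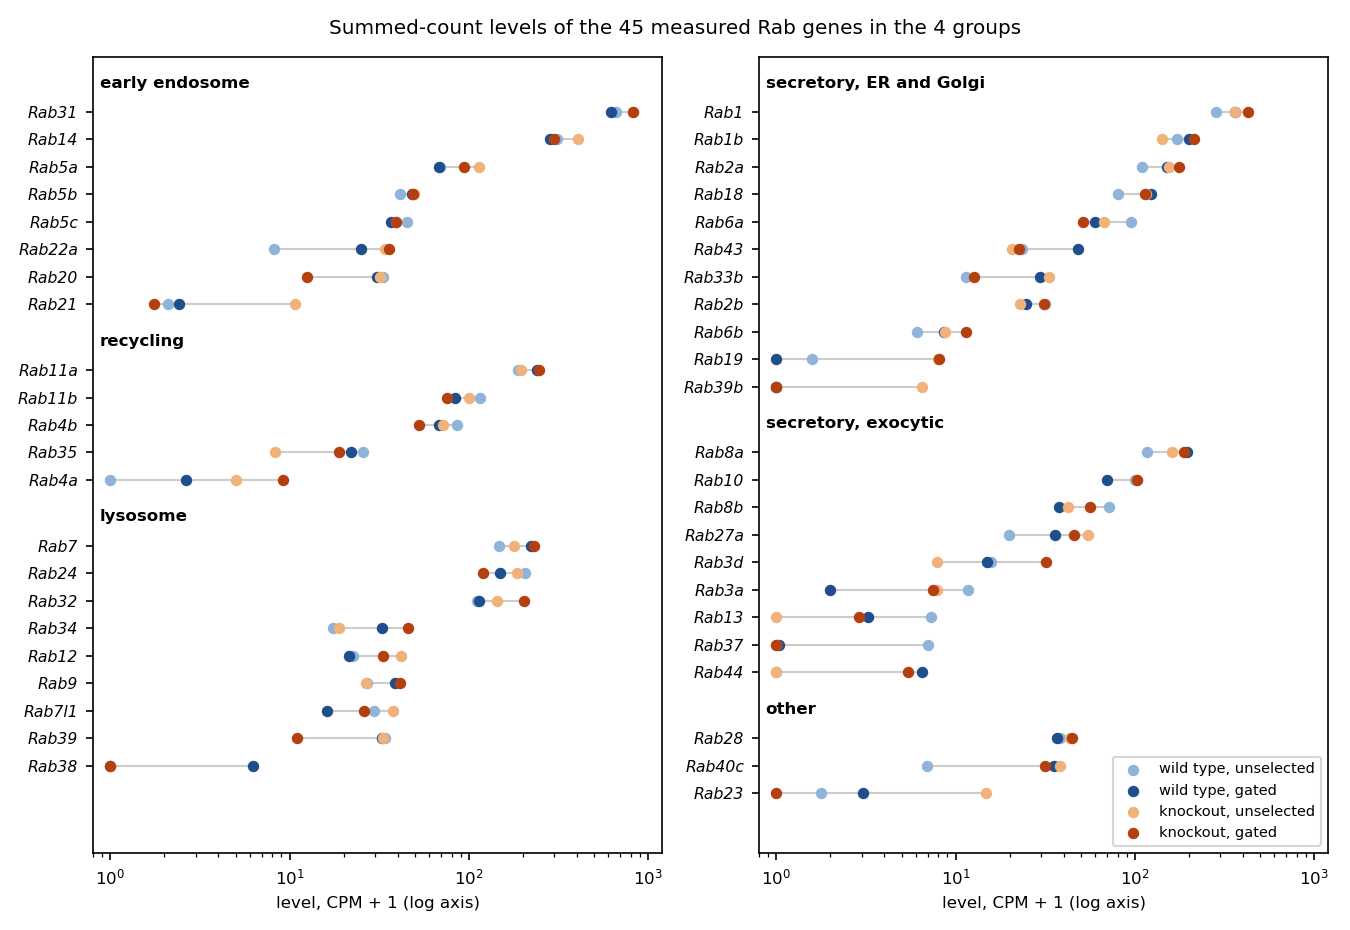
Level of each of the 45 measured Rab genes in the 4 groups, from counts summed over cells, as CPM + 1 on a log axis and ordered by compartment and level. The 4 points of the high genes, such as Rab31 and Rab11a, lie close together, and the widest spans belong to genes under 50 CPM, such as Rab40c and Rab23.

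Levels between genes were compared per kilobase (kb) of exon. On that scale Rab31 was the highest member in every group, at 174, 162, 216 and 215 CPM per kb, which placed it 181st, 199th, 138th and 148th of 10456 measured genes with a length. Rab1, Rab24, Rab7, Rab11a, Rab1b and Rab2a followed, each above 50 CPM per kb in all groups. Of the family's summed level per kb, early endosome Rabs took 26.1%, 23.2%, 28.4% and 24.7%. Recycling Rabs took 13.2%, 12.8%, 10.6% and 11%, and lysosome Rabs 26.2%, 25.4%, 25.6% and 25.5%. ER and Golgi Rabs took 25.1%, 29%, 25.2% and 28.3%, and exocytic Rabs 8.42%, 7.84%, 8.12% and 8.71%. The lysosome share thus stayed within 1 percentage point across the 4 groups, and the ER and Golgi share was higher in the gated group of each genotype.

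A gene was counted as higher or lower where its summed-count CPM plus 1 differed at least 2-fold and the mean CPM per cell differed in the same direction. This is a rule of size, not a test, and the share of all 10554 measured genes that met it is given beside the family counts. The counts per compartment further on are of 3 to 11 genes each, which is too few to be read against those shares. In the gate comparison of wild-type cells, 7 of the 45 measured members were higher (15.6%, against 15.2% of all measured genes) and 3 lower (6.67%, against 19.9%). In the gate comparison of knockout cells, 5 were higher (11%, against 12.4%) and 6 lower (13.3%, against 22%). The higher shares were thus near the background in both genotypes and the lower shares below it. For knockout against wild type, 9 were higher (20.0%, against 16.5%) and 4 lower (8.89%, against 13.3%) in unselected cells. In gated cells 4 were higher (8.89%, against 11.4%) and 6 lower (13.3%, against 12%). The median log2 difference of the measured members was 0.00, 0.00, 0.20 and 0.07 in these comparisons, beside -0.12, -0.26, 0.05 and 0.00 over all measured genes.

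Scaling to the ERCC spike-in RNA instead of gene counts changed these counts. Gated cells had more gene counts per spike-in count, with medians of 39.8 against 24.9 in wild type and 53.7 against 18.1 in knockout. With that scaling 30 members were higher and 3 lower in the knockout gate comparison, beside 49.3% and 5.32% of all measured genes, and the median of all genes was 0.98. The lower share of members in that comparison, 6.67%, was then above the share of all genes, not below it. In the wild-type gate comparison it gave 13 higher and 2 lower, beside 23.7% and 12.5% of all measured genes. For genotype it gave 8 higher and 5 lower in unselected cells, beside 10.5% and 22.4%, and 7 higher and 3 lower in gated cells, beside 19.7% and 7.99%. The medians of all genes were 0.29, -0.38 and 0.35 in those comparisons.

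By CPM, none of the 14 members at 100 CPM or more in any group met the size rule in any of the 4 comparisons. With spike-in scaling, where 30 of the 45 members were higher in the knockout gate comparison, these 14 were not counted apart. Among the 2154 genes of all kinds at that level, a limit chosen after the values were seen, 16.6% met it in either direction in the wild-type gate comparison and 23.2% in the knockout gate comparison. The shares were 5.94% for genotype in unselected and 6.96% for genotype in gated cells. The 20 members that met the rule in at least 1 comparison were all below 100 CPM in every group, with 53.9 CPM of Rab27a as the highest level. Of their 44 calls, 4 held under all 12 alternative settings. The setting of 20 CPM in any group drops every gene below that level, so calls of such members were lost by design. Neither the members called in at least 1 comparison nor the calls kept were counted over all measured genes. These counts thus cannot be read as particular to the family.

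Early endosome Rabs carry newly internalised cargo, and this compartment held the highest member. All 8 were measured. With the gate 1 was higher and 0 lower in wild type and 0 higher and 2 lower in knockout, and for genotype 2 were higher in unselected and 1 lower in gated cells. Rab31, which works in transport between the trans-Golgi network and endosomes, was at 663 (655 to 671), 619 (612 to 625), 824 (817 to 832) and 818 (810 to 826) CPM. Its cells had medians of 513, 526, 697 and 760 CPM and highest values of 3216, 2223, 3341 and 3120 CPM, with cells at 0 in every group. Its level was 1.24-fold and 1.32-fold higher in knockout cells, unselected and gated, and differed 1.07-fold and 1.01-fold between gates, all within the spread of single cells. The gene lies on chromosome 17 at 65651729 to 65772752 of the mm10 build. Rab14, which acts between early endosomes and the Golgi, was at 308, 282, 407 and 296 CPM, highest in knockout unselected cells. Rab5c was at 44.1, 35.6, 38.4 and 38.2 CPM and was, per kb, above Rab5a in wild-type cells, at 20.1 and 16.2 against 12.9 and 12.7 CPM per kb.

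Rab5a, the classic regulator of early endosome fusion, was at 68, 66.7, 113 and 92.6 CPM. It was 1.67-fold and 1.39-fold higher in knockout cells, unselected and gated, and below the 2-fold limit in both. After thinning it had a count in 28 of 78, 32 of 90, 30 of 90 and 50 of 76 cells, so in knockout unselected cells the sum was higher with a similar share of cells. Rab22a, the close relative of Rab31 on early endosomes, was low in wild-type unselected cells, at 7.24 CPM (6.42 to 8.13), with 64.9% of its counts in 1 cell. The other groups had 24.1 (22.8 to 25.4), 32.8 (31.4 to 34.4) and 35 CPM (33.4 to 36.7). It was 3.32-fold higher in gated than in unselected wild-type cells and 4.54-fold higher in knockout than in wild-type unselected cells, and both differences passed under all 12 alternatives. Between the knockout gates it differed 1.07-fold.

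Rab20, a Rab of endosomes and phagosomes, was at 32.4, 29.9, 30.8 and 11.5 CPM. It was 2.68-fold lower in gated than in unselected knockout cells and 2.60-fold lower in knockout than in wild-type gated cells, or -1.35 and -1.31 on the log2 scale. With spike-in scaling these were -0.08 and -0.96, neither past the limit. Its cells with a count after thinning numbered 8, 17, 9 and 10, so the difference in level came without a difference of that size in the share of cells. Of its exon length, 25.6% overlaps E230013L22Rik on the opposite strand. Rab21, which acts in early endosomes and integrin traffic, was at 1.1, 1.43, 9.72 and 0.753 CPM, and 53.2% of its counts in knockout unselected cells came from 1 cell. Its genotype difference in unselected cells, 8.81-fold higher in knockout, was -0.15 on the log2 scale in cells with 2000 to 4000 detected genes.

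Stretches upstream of the start were read for the members whose promoter held one of 5 motifs, to show the letters next to the levels. RefSeq promoters (GRCm38.p6, 250 bases before to 50 after the start) matched 47 of the 57 members with 59 promoters. The motif CACGTG, an E-box, was in 6 of the 59 (10.2%) and in 7.15% of all 32851 promoters. Its extension TCACGTGA, the core of the CLEAR element of lysosomal genes, was in 3 (5.08%), of Rab5a, Rab21 and Rab24, and in 0.974% of all. GAGGAAGT, a PU.1-type site, was in 2 (3.39%, against 3.2%), of Rab32 and Rab2b, and CCGGAAGT, a GABPA-type site, in 2 (3.39%, against 3.89%), of Rab11a and Rab24. TATAAA was in 3 (5.08%, against 13.6%), of Rab7, Rab3b and Rab39b. Both strands were searched, TCACGTGA contains CACGTG, and each match is a description of letters. The stretches below, on the gene's strand with the match in capitals, lie outside annotated exons. Rab5a lies at chr17:53479118-53479165 (plus strand), Rab21 at chr10:115315595-115315642 (minus), Rab11a at chr9:64737775-64737822 (minus) and Rab7 at chr6:88045463-88045508 (minus), where TATAAA reads on the other strand.
Rab5a: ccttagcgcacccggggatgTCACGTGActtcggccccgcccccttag
Rab21: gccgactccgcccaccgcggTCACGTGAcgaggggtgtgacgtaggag
Rab11a: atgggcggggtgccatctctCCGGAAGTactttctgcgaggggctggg
Rab7: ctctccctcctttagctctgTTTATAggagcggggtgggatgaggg

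Recycling Rabs return cargo from endosomes to the surface, and 5 of the 8 were measured. With the gate 1 was higher and 0 lower in each genotype. Rab11a, the main Rab of the recycling endosome, was at 187 (183 to 191), 239 (235 to 243), 193 (189 to 197) and 245 (241 to 250) CPM. Its single-cell medians were 39.6, 203, 98.2 and 205 CPM, higher in the gated group of each genotype, with cells at 0 and overlapping ranges throughout. It was 1.28-fold higher with the gate in wild type and 1.27-fold higher in knockout. Its paralogue Rab11b went the other way, at 114, 82.2, 99.4 and 74.6 CPM. Rab11a therefore took 62.2% of Rab11 counts in unselected and 74.4% in gated wild-type cells, and 66% and 76.7% in knockout cells, a share that does not depend on the scaling between groups. In wild-type unselected cells 24.1% of Rab11b counts came from 1 cell, and without it the Rab11a share was 68.4%. With any 1 cell left out, the share ranged from 64.7% to 67.1% in knockout unselected and from 75.6% to 77.9% in knockout gated cells. Rab11a had more counts than Rab11b in 39, 67, 42 and 63 cells and fewer in 26, 17, 27 and 13. Of Rab11b's 50-base stretches, 9.5% recur in other genes, mostly Rab11b-ps2, so its counts are less certain.

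Rab4b, of fast recycling, was at 85, 66.9, 71 and 52 CPM, lower in each gated group but by less than 2-fold. The gene shares 65% of its exon length with Gm21983 on the same strand, where the 2 genes cannot be told apart. Rab4a, its paralogue, had no count in 78 wild-type unselected cells and was at 1.66, 4.01 and 8.14 CPM in the others. It was at least 52.1-fold higher in knockout than in wild-type unselected cells with 3 counts over the group taken as its floor, but 76.3% of those counts came from 1 cell. Rab4a was 4.92-fold higher in knockout than in wild-type gated cells, in 7 of 76 against 2 of 90 thinned cells. Rab35, a Rab of fast recycling and of phagosomes, was at 24.8, 21.0, 7.28 and 17.8 CPM, lowest in knockout unselected cells. It was 2.44-fold higher with the gate in knockout and 3.41-fold lower in knockout than in wild-type unselected cells. In cells with 2000 to 4000 detected genes the latter difference was 0.0053 on the log2 scale.

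Lysosome Rabs guide late endosomes, autophagosomes and lysosome-related organelles, and 9 of the 11 were measured. With the gate 1 was higher and 0 lower in wild type and 1 higher and 1 lower in knockout. For genotype none met the rule in unselected cells and 2 were lower in gated cells. Rab7, the key Rab of fusion with lysosomes, was at 146 (142 to 150), 221 (217 to 225), 178 (175 to 182) and 229 (225 to 233) CPM. Its single-cell medians were 70.7, 172, 143 and 211 CPM, and thinned cells with a count were 50 of 78, 78 of 90, 54 of 90 and 71 of 76. Rab7 was 1.52-fold higher with the gate in wild type and 1.28-fold in knockout, below the limit in both, and the share of cells with a count was higher in both gated groups. Median thinned gene detection was also higher in both, as given for the family, and its part in the share was not tested. Of the 50-base stretches of Rab7, 11.2% recur elsewhere, mostly in Rab7-ps1. Rab24, linked to autophagosome clearance, went the other way, at 206, 148, 185 and 119 CPM. It was 1.39-fold and 1.55-fold lower with the gate, and 62.4% of its exon length overlaps Prelid1 on the opposite strand.

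Rab32, of melanosome-like and phagosomal compartments, was named after its values were seen. It was at 110 (106 to 113), 112 (109 to 115), 142 (139 to 145) and 202 (198 to 206) CPM. Its single-cell medians were 6.00, 10.7, 0.656 and 191 CPM, and thinned cells with a count were 37 of 78, 48 of 90, 41 of 90 and 68 of 76. Knockout gated cells thus stood apart in the share of cells, 89.5% against 45.6% to 53.3%, while the summed level was 1.42-fold above knockout unselected and 1.80-fold above wild-type gated cells. Median thinned gene detection was also highest in that group, as given for the family, and its part in the share was not tested. In knockout gated cells Rab32 was at 206 CPM in cells with at least 3 border-associated macrophage markers and at 188 CPM in the others. The other groups were less even. Rab32 was lower with the markers in unselected cells, at 35.2 against 123 CPM in wild type and 66.8 against 158 CPM in knockout. In wild-type gated cells it was higher with them, at 151 against 82.2 CPM.

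**Figure D2:**
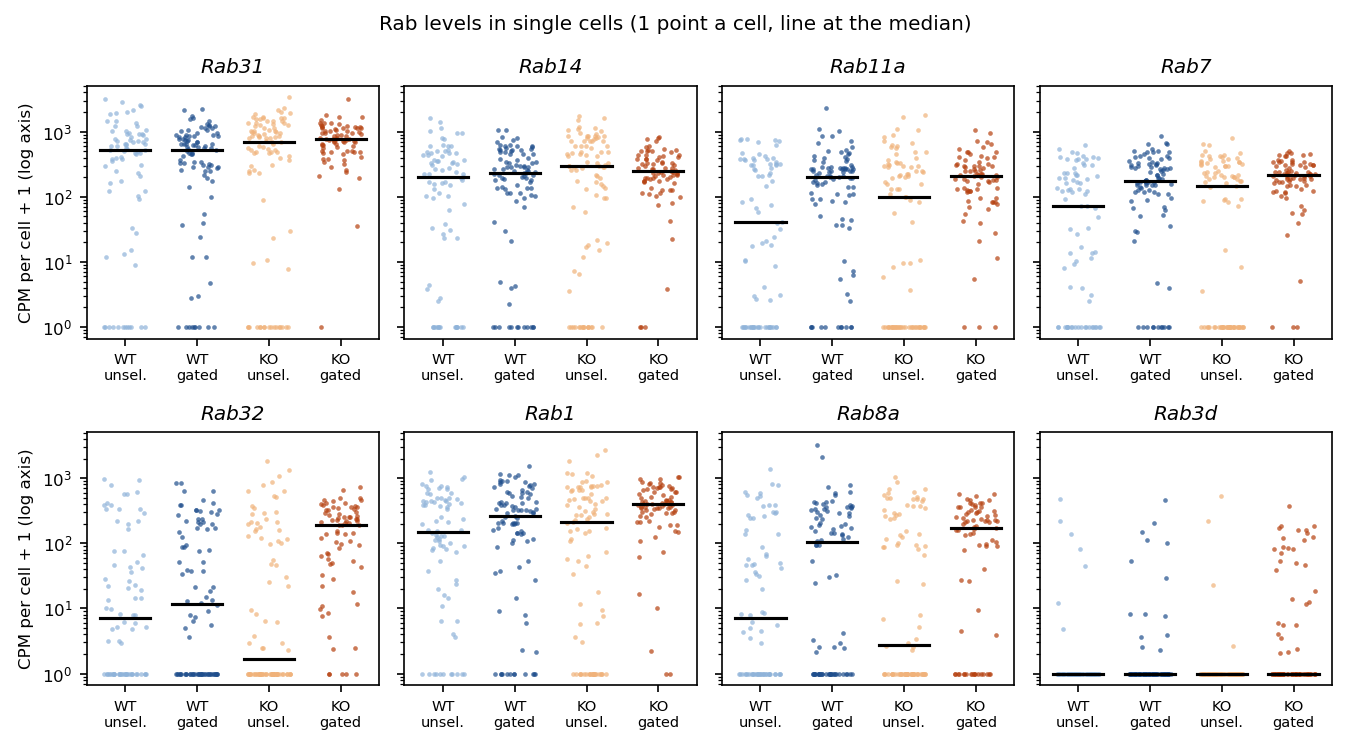
CPM + 1 on a log axis for 8 Rab genes in each passing cell, with 1 point a cell, the 4 groups on the horizontal axis (unsel., unselected) and a line at the median. Rab32 shows the jump of the median to 191 CPM in knockout gated cells, and Rab3d shows more cells above 0 in the same group.

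Rab34, which acts in lysosome positioning, was at 16.4 (15.1 to 17.7), 31.8 (30.3 to 33.3), 17.8 (16.8 to 19) and 44.9 (43.1 to 46.8) CPM. Thinned cells with a count were 7 of 78, 19 of 90, 8 of 90 and 29 of 76. It was 2.52-fold higher with the gate in knockout and 1.94-fold in wild type, just under the limit, so the gated group was the higher one in both genotypes. The knockout call was lost in cells with 2000 to 4000 detected genes, and in knockout gated cells without 3 or more border-associated macrophage markers the level was 51.3 CPM, above the 43 CPM of the others. Rab39, a Rab of phagosome maturation, was at 33.2, 31.7, 32 and 9.94 CPM. It was 3.22-fold lower in gated than in unselected knockout cells and 3.19-fold lower in knockout than in wild-type gated cells. Its thinned cells with a count were 21, 17, 11 and 5, and 63.1% of the counts in knockout gated cells came from 1 cell. Rab38, the paralogue of Rab32, had counts in 2 wild-type gated cells and in no other group. Rab9, of transport from late endosomes to the Golgi, was at 26, 37.9, 25.5 and 40.3 CPM, higher in both gated groups by less than 2-fold. Rab12 was at 21.6, 20.3, 41.1 and 32.1 CPM, higher in both knockout groups by less than 2-fold. Rab7l1, also called Rab29, was at 28.5, 15.1, 37 and 25 CPM.

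Rab7b, a late endosomal Rab that acts back to the Golgi, is listed under its older symbol 5430435G22Rik and so falls outside the symbol rule. It was at 5.80, 9.26, 8.47 and 54 CPM, 6.38-fold higher in gated than in unselected knockout cells and 5.83-fold higher in knockout than in wild-type gated cells. Before thinning, cells with a count numbered 2, 3, 1 and 34. In the first 3 groups the highest cell held 91.2%, 96.2% and 100.0% of the counts, against 8.87% in knockout gated cells. Thinned to 100000 counts, it was found in 2.56%, 3.33%, 1.11% and 39.5% of cells. In knockout gated cells it was at 51.6 CPM with and 62.3 CPM without 3 or more border-associated macrophage markers.

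ER and Golgi Rabs move new proteins through the early secretory route, and 11 of the 13 were measured. With the gate 2 were higher and 0 lower in wild type and 0 higher and 2 lower in knockout. For genotype 3 were higher in unselected cells, and 1 was higher and 2 lower in gated cells. Rab1, listed under the older symbol of Rab1a, acts from the ER to the Golgi and was at 284, 361, 360 and 427 CPM. Its single-cell medians were 147, 258, 210 and 394 CPM, lowest in wild-type unselected and highest in knockout gated cells, with overlapping ranges. Its paralogue Rab1b was at 170, 199, 141 and 211 CPM, 1.5-fold higher with the gate in knockout and 1.17-fold in wild type. Rab2a, of the ER-Golgi intermediate compartment, was at 109, 150, 153 and 175 CPM. Rab18, of lipid droplets and the ER, was at 79.8, 122, 115 and 113 CPM. Rab6a, of transport within and out of the Golgi, was at 94.4, 59, 66.6 and 50.4 CPM, lower in both gated groups by less than 2-fold.

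The ER and Golgi members that met the size rule were lower in level. Rab33b, which acts at the Golgi and in autophagy, was at 10.5, 28.7, 32.1 and 11.7 CPM, 2.74-fold higher with the gate in wild type and 2.75-fold lower with it in knockout. Its counts came from 3 of 78, 9 of 90, 7 of 90 and 7 of 76 thinned cells, the highest cell held 30.2% to 62.7% of a group's counts, and 18.7% of its exon length overlaps an opposite-strand gene. The knockout gate difference of Rab33b was 0.047 on the log2 scale without cells that had 3 or more border-associated macrophage markers, and 0.30 in cells with 2000 to 4000 detected genes. Rab43, of the Golgi, was at 22.5, 47.4, 19.6 and 21.7 CPM, 2.1-fold higher with the gate in wild type and 2.19-fold lower in knockout than in wild-type gated cells. Without the marker-positive cells the latter was 0.12 on the log2 scale. Rab43 shares 75.4% of its exon length with Gm45140 on the same strand. Rab19 and Rab39b rested on few cells: Rab19 had counts after thinning in 1, 0, 1 and 3 cells, and Rab39b in 1 knockout unselected cell. Without its highest cell, the genotype difference of Rab19 in unselected cells was -0.04 on the log2 scale.

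Exocytic Rabs bring vesicles to the surface, and 9 of the 13 were measured. With the gate 1 was higher and 3 lower in wild type and 3 higher and 0 lower in knockout. For genotype 1 was higher and 3 lower in unselected cells and 2 higher and 0 lower in gated cells. Rab8a, of polarised secretion and lysosome repair, was at 116 (112 to 119), 194 (191 to 198), 161 (158 to 164) and 187 (183 to 191) CPM. Its single-cell medians were 6.03, 102, 1.77 and 173 CPM, higher in both gated groups. Rab8b was at 70.3, 36.8, 41.3 and 55.1 CPM, so Rab8a took 62.2% of Rab8 counts in wild-type unselected cells and 84.1%, 79.6% and 77.2% in the others. Rab10, of exocytosis and membrane recycling, was at 99.6, 68.6, 102 and 102 CPM. Rab27a, of lysosome-related secretory vesicles, was at 18.8 (17.5 to 20.2), 34.8 (33.3 to 36.4), 53.9 (52 to 55.8) and 44.9 (43.1 to 46.8) CPM. It was 2.86-fold higher in knockout than in wild-type unselected cells, 1.47 on the log2 scale and 0.98 with spike-in scaling, just under the limit, with thinned cells at 19 of 78 and 28 of 90.

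Rab3d, a Rab of regulated secretory granules, was at 14.8 (13.6 to 16.1), 14.1 (13.1 to 15.1), 6.89 (6.22 to 7.61) and 31 (29.4 to 32.5) CPM. Thinned cells with a count were 6 of 78, 11 of 90, 3 of 90 and 25 of 76. It was 4.49-fold higher with the gate in knockout, beside 1.05-fold lower in wild type, and 2.20-fold higher in knockout than in wild-type gated cells. Rab3d differed between cells with and without border-associated macrophage markers in the knockout gated group. In knockout gated cells Rab3d was at 38.9 CPM in the 61 cells with at least 3 of these markers, 24 of them with a count, and at 3.21 CPM in the other 15, 1 with a count. In the other groups it was also the higher in cells with the markers, at 20.1 against 13.9, 19.9 against 9.57 and 14.6 against 5.17 CPM. Those values rested on few thinned cells with a count, 3 against 3, 7 against 4 and 2 against 1. The highest cell held 60.4%, 44.6% and 61.5% of the Rab3d counts in these groups. Without the cells that had at least 3 markers, the knockout gate difference of Rab3d was -0.55 on the log2 scale and the genotype difference in gated cells -1.33, which ended both calls and turned their direction.

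**Figure D3:**
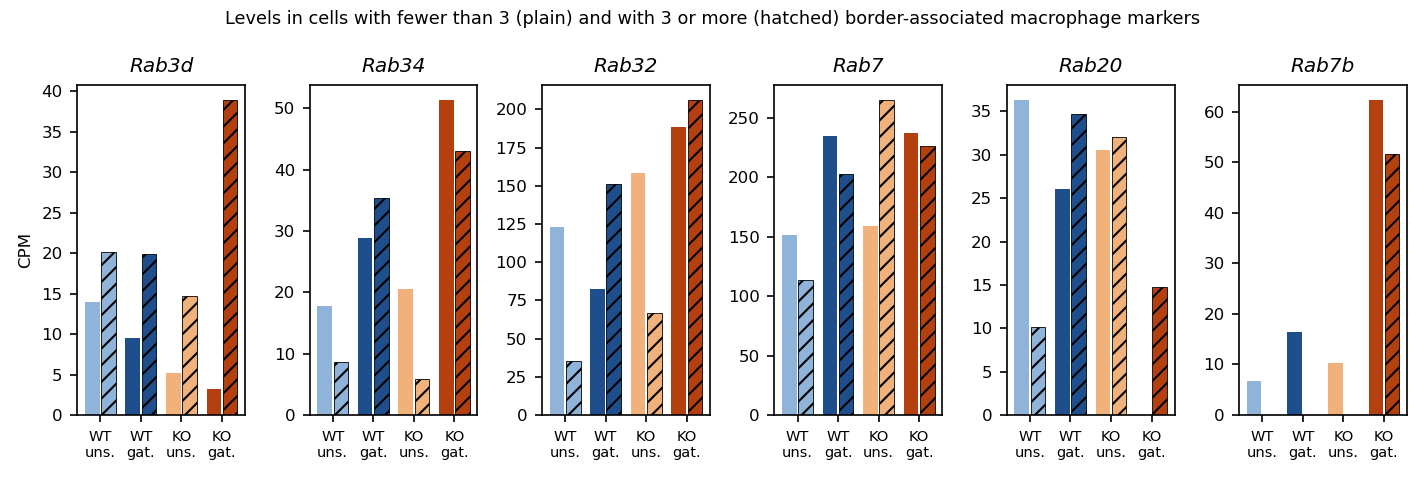
CPM of 5 Rab genes of the rule and Rab7b in each group (uns., unselected; gat., gated), from cells with fewer than 3 (plain bars) and with 3 or more (hatched bars) border-associated macrophage markers. Rab3d in knockout gated cells stands at 38.9 CPM with the markers and 3.21 CPM without, while Rab34 and Rab7b in that group are higher without them, at 51.3 and 62.3 CPM.

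The remaining exocytic calls rested on few cells. Rab3a, best known from synaptic vesicles, was at 10.8, 0.986, 6.85 and 6.50 CPM, 11-fold lower with the gate in wild type, in 10 of 78 against 2 of 90 thinned cells. Rab13, of tight-junction traffic, had thinned counts in 4, 1, 0 and 2 cells, and its wild-type gate difference of -1.165 was 1.68 in cells with 2000 to 4000 detected genes. Rab37, of secretory granules, had them in 2 wild-type unselected cells, with 97.0% of its counts from 1. Rab44, of mast cell granules, was higher with the gate in both genotypes, from no count to 5.51 and 4.44 CPM, in 2 and 3 thinned cells. Both calls were lost without cells that had 3 or more border-associated macrophage markers. Rab44 was at 11.9 CPM with against 0.561 CPM without the markers in wild-type gated cells, and at 5.70 against 0 CPM in knockout gated cells. These values rested on 1 thinned cell against 1 in wild type, and on 3 of 61 against 0 of 15 cells in knockout. The wild-type call was also lost without the highest cell of the gene.

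Of the members with other roles, Rab28 was even, at 37.0, 36, 42.7 and 43.5 CPM. Rab40c, which joins a ubiquitin ligase, was at 5.90 (5.16 to 6.72), 34.3 (32.8 to 35.9), 37.0 (35.5 to 38.6) and 30.7 (29.2 to 32.3) CPM. It was 5.81-fold higher with the gate in wild type and 6.27-fold higher in knockout than in wild-type unselected cells, and both differences passed under all 12 alternatives. As for Rab22a, wild-type unselected was the low group, with 5 of 78 thinned cells and 89.1% of the counts in 1 cell, against 15 of 90, 8 of 90 and 16 of 76. Rab23, of ciliary signalling, was at 0.770, 2.06, 13.8 and 0 CPM, with 86.3% of the knockout unselected counts in 1 cell. Among the 12 members below 5 CPM everywhere, Rab9b, Rab15 and Rab27b had no count in any passing cell.

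Shares within sets of paralogues were compared because they do not depend on the scaling between groups. The sets were chosen with the values known. Rab5a took 44.7%, 44.6%, 56.7% and 51.9% of Rab5 counts, more in both knockout groups. Rab1 took 62.5%, 64.5%, 71.9% and 66.9% of the counts of Rab1 and Rab1b. Rab2a took 78.1%, 86.3%, 87.4% and 85.4% of Rab2 counts, although 64% of the exon length of Rab2b overlaps Gm43766 on the opposite strand. Rab6a took 94.9%, 88.5%, 89.5% and 82.9% of Rab6 counts, the rest being Rab6b, best known from neurons, with 3, 9, 7 and 7 thinned cells. With any 1 cell left out, an alternative added after the data were seen, the share of Rab2a in wild-type unselected cells ranged from 75.7% to 89.3%.

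**Figure D4:**
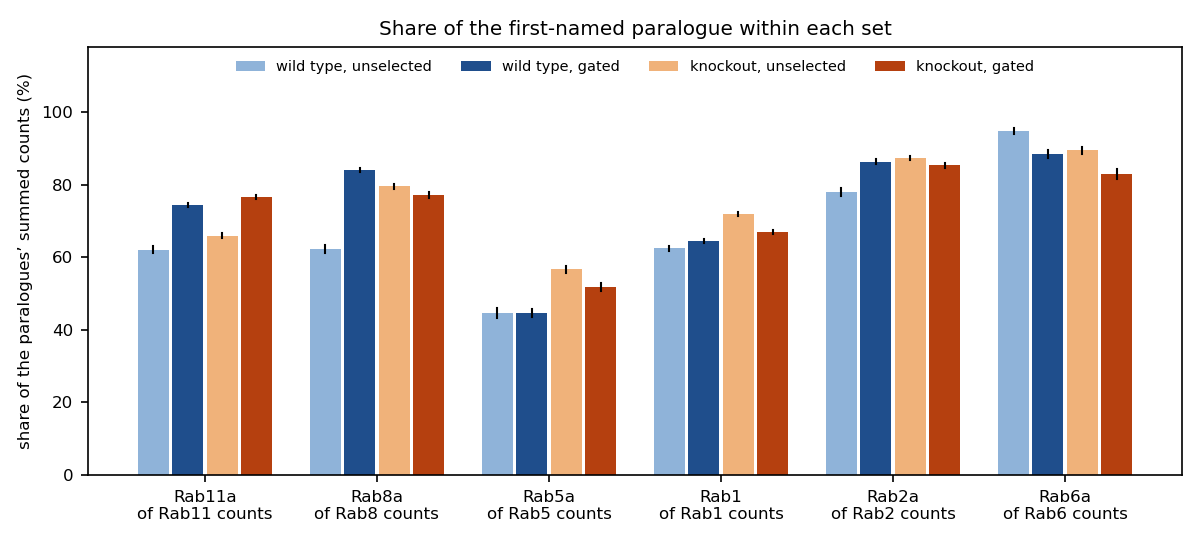
Share in percent of the summed counts of a set of paralogues that belong to the gene named first (Rab1 stands for Rab1a), in the 4 groups, with 95% Clopper-Pearson intervals that cover counting error only. Rab11a stands at 74.4% and 76.7% in gated against 62.2% and 66% in unselected cells, and Rab8a is low in wild-type unselected cells at 62.2%.

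The gate comparisons of the 2 genotypes share no cells, and their differences were weakly related over the 45 measured members. Pearson's r was 0.08 and Spearman's rho 0.17, given as a description because genes of 1 library share its depth. Differences had the same sign for 29 members. Rab44 was higher in both, on few cells as given above. No member was lower in both, and Rab13 and Rab33b met the rule in opposite directions. In all, 11 members were higher in either gate comparison and 9 lower in either. The overlap of calls was not counted over all measured genes, so these counts cannot be read as particular to the family. The differences of the members near 0 on both axes are mostly those of high genes, such as Rab31 at -0.10 and -0.01 and Rab1 at 0.34 and 0.25.

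**Figure D5:**
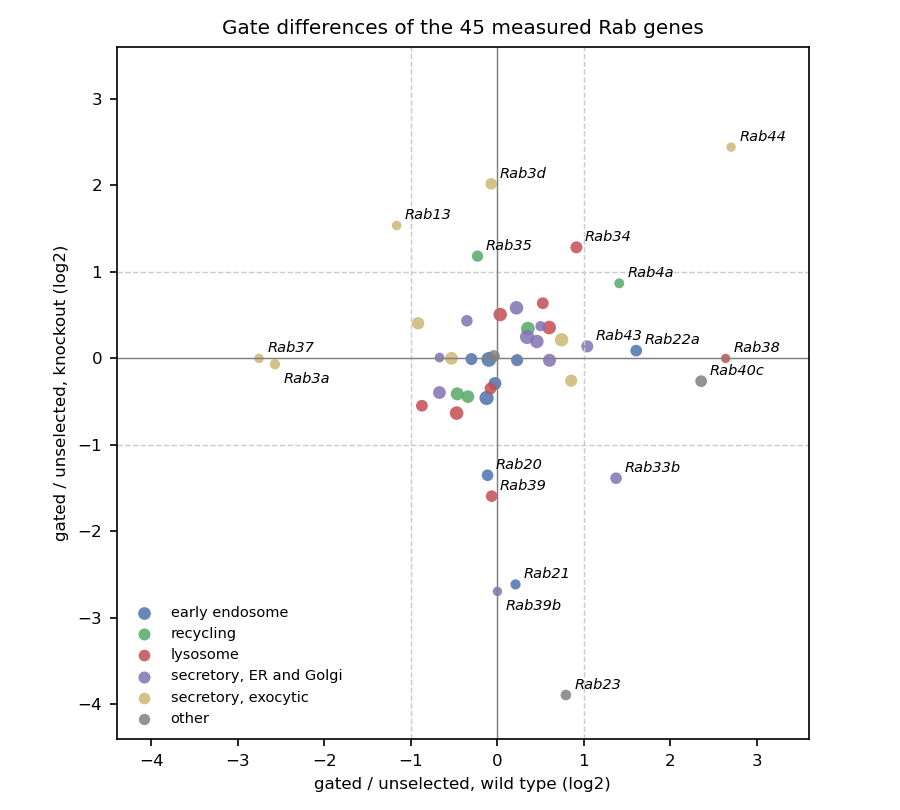
Log2 difference between gated and unselected cells in wild type (horizontal) and knockout (vertical) for the 45 measured Rab genes, coloured by compartment, with larger points for higher levels and dashed lines at 2-fold. Named genes met the size rule in at least 1 of these comparisons, and Rab44 is the one beyond 2-fold upward in both.

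The machinery that acts on Rabs was described from 4 lists. Beside their counts stand the shares of all measured genes, 15.2% higher and 19.9% lower with the gate in wild type and 12.4% and 22% in knockout. Of 35 measured exchange factors, 7 were higher and 6 lower with the gate in wild type, and 3 higher and 10 lower in knockout, with medians of -0.34 and -0.55. Of 29 measured GAPs, 7 were higher and 5 lower in wild type, and 3 higher and 7 lower in knockout, with medians of 0.19 and -0.39. Of 44 measured effectors, 10 were higher and 5 lower in wild type, and 7 higher and 12 lower in knockout, with medians of 0.02 and -0.37. All 4 medians in knockout were below the -0.26 of all measured genes, the fourth being -0.87 for the 7 genes of prenylation and GDP dissociation inhibition. In that list 1 was higher and 1 lower in wild type, and 1 higher and 3 lower in knockout. The lists and the partners named below were compared by CPM and were not run under the alternative settings. With spike-in scaling the median of all measured genes in the knockout gate comparison was 0.98, so the lower calls there hold for CPM only.

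Among the effectors, Plekhm2, which links lysosomes to kinesin, was at 9.73, 48, 10.9 and 54.6 CPM, higher with the gate in both genotypes. Its thinned shares were 14.1%, 20.0%, 6.67% and 43.4% of cells. Mical1, an actin-oxidising Rab effector, was at 0.462, 40.4, 15.3 and 36.9 CPM. It had counts in 1.28%, 18.9%, 3.33% and 26.3% of thinned cells, so both gated groups were above the unselected ones. Exoc6, an exocyst subunit, was at 22, 4.78, 7.42 and 22 CPM. Mical3, of the same family as Mical1, was at 0, 6.45, 23.5 and 3.51 CPM, highest in knockout unselected cells. Among those lower with the knockout gate, Unc13d, a secretory granule tether, was at 22.4 against 3.17 CPM and Rilpl1, an adaptor of Rab8 and Rab10, at 24.5 against 4.34 CPM.

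Of the regulators, Rabggtb, the catalytic subunit of the enzyme that adds lipid to Rabs, was at 40.3, 11.5, 65.8 and 28.3 CPM. It was 3.50-fold and 2.32-fold lower with the gate, in wild type and knockout. Its partner subunit Rabggta was at 54.6, 32.4, 70.5 and 31.7 CPM and the escort protein Chm at 16.2, 31.8, 45.6 and 21.7 CPM. Both were more than 2-fold lower with the gate in knockout. Thinned shares of cells were 20.5%, 7.78%, 15.6% and 26.3% for Rabggtb and 23.1%, 15.6%, 14.4% and 28.9% for Rabggta. For Chm they were 19.2%, 17.8%, 16.7% and 22.4%. In knockout these shares were thus higher with the gate, while the levels were lower. The exchange factor of Rab8, Rab3ip, was at 35.9, 7.63, 11.6 and 9.78 CPM, highest in wild-type unselected cells. Rab3gap2, part of the exchange factor of Rab18, was at 41.6, 9.82, 16.9 and 37 CPM, lower with the gate in wild type and higher in knockout. Dennd4a was at 52.6, 22.7, 66 and 35.4 CPM and Dennd2c at 29.7, 14.7, 51.3 and 14 CPM, each lower in both gated groups. Rpgr was at 2.77, 11.7, 21.7 and 6.46 CPM, higher with the gate in wild type and lower in knockout. Its highest cell held 77.8%, 88.7%, 56.4% and 71.2% of the counts, so both differences rested on few cells. Rgp1, part of the exchange factor of Rab6, was at 62.9, 37.9, 14.4 and 50.8 CPM, lowest in knockout unselected cells and 3.53-fold higher with the knockout gate. The GAPs included Tbc1d1, known from glucose transporter traffic, which stood at 5.47, 4.85, 1.74 and 23.6 CPM and was 13.5-fold higher with the knockout gate. Tbc1d5, which acts on Rab7, was at 64.7, 25.1, 59.5 and 30.8 CPM, lower in both gated groups. Its thinned shares were 30.8%, 18.9%, 21.1% and 39.5% of cells, highest in knockout gated cells. Tbc1d25 was at 24.9, 10.5, 27.3 and 1.78 CPM, 2.36-fold and 15.3-fold lower with the gate in wild type and knockout, and Tbc1d2b at 18.3, 6.88, 35.5 and 9.98 CPM. Thinned shares of Tbc1d25 were only 6.41%, 6.67%, 6.67% and 2.63% of cells. Evi5 was at 56.8, 19.6, 64.7 and 45.4 CPM, 2.89-fold lower with the gate in wild type, and Tbc1d24 at 5.72, 23.5, 15.3 and 13.6 CPM, 4.11-fold higher. Of the Tbc1d24 counts in wild-type gated cells, 53.4% came from 1 cell. Its thinned share was 8.97% of unselected and 7.78% of gated wild-type cells.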

How the data were processed

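Full-length cDNA of 369 sorted microglia was sequenced, 1 cell per sample, and the 334 cells marked as passing all 3 quality criteria were used, with 157653 to 1051282 gene counts each. The authors deposited 1 table of raw counts of 23337 genes and 92 spike-in RNAs. The submitters' processing notes name HTSeq, Picard, STAR 2.5.3a and Trim Galore 0.4.3, with mm10 as the genome. The annotation behind the counts, and whether strand was used, were not found in the labels, so reads shared by overlapping or antisense genes cannot be assigned here. Spike-ins made up 3.56% of all counts and stayed out of library sizes.

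Counts were summed over the passing cells of a group (38971356 to 56902287) and scaled to CPM. Log2 differences used CPM plus 1, which understates differences of low genes. Genes at 5 CPM in any group were measured. For shares of cells with a count, each cell was thinned to 100000 gene counts, and no passing cell had fewer. Thinned cells of the gated groups still held more detected genes at the median. The part of this in the cell shares of single genes was not tested. Before thinning, Rab32 had a count in 61.5%, 58.9%, 50% and 93.4% of cells and Rab3d in 8.97%, 15.6%, 4.44% and 40.8%. For a group with no count, 3 counts over the group stood as the floor. Exon lengths, positions and overlaps came from GENCODE M21, where all 57 members were found, 2 by older symbols. Sequence shared with other genes was searched in stretches of 50 bases. Amplified reads are not independent molecules. Wells received single cells, so no doublet caller was run.

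Values are given for members called in any comparison and for the 2 highest per compartment by level per length. Further members, such as Rab5a, Rab9, Rab12 and Rab18, were named outside this rule. Regulators were the up to 3 called genes per list and gate comparison with the largest log2 difference among those at 20 CPM or more in the higher group, and Trem2, Gpnmb and Clec7a always. Members, lists and rules were chosen with earlier results of these data known. Alternatives were other scalings (edgeR 4.0.16 TMM factors, DESeq2 1.42.0 size factors, spike-ins), pseudocounts, filters and sets of cells. Python 3.11.15, numpy 2.4.6, pandas 2.3.3, scipy 1.17.1 and matplotlib 3.10.9 were used.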

Additional observations from a re-analysis of the deposited data

Results flagged for a closer look

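Some members met the size rule in opposite directions in the 2 genotypes or the 2 gates. None of these differences was tested, and the share of all measured genes with such opposite calls was not counted. Rab13 was at -1.165 with the gate in wild type and 1.54 in knockout (log2), with thinned counts in 4, 1, 0 and 2 cells. Rab33b was at 1.37 with the gate in wild type and -1.385 in knockout, and at 1.53 for knockout against wild type in unselected and -1.23 in gated cells. Rab23 was at 3.07 for knockout against wild type in unselected and -1.62 in gated cells, and Rab3d at -1.005 and 1.085. Without the highest cell of each gene, the call of Rab13 in the knockout gate comparison, that of Rab23 in gated cells and that of Rab3d in unselected cells were lost.

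Signal also appeared outside the values compared. Rab7b, listed as 5430435G22Rik, was at 54.01 CPM in knockout gated cells. In the 6 cells that failed the spike-in criterion and no other, the family summed to 3397 CPM in 3 wild-type unselected cells, 2405 CPM in 1 wild-type gated cell and 2619 CPM in 2 knockout unselected cells.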

How the results depend on the processing

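Over 12 alternatives and 4 comparisons, 120 of 144 summary values (members higher, members lower and the median log2 difference) stayed within 1.5 times or the spread, and 24 moved. The cause of these changes was not tested, except where an alternative itself removes genes or cells. With genes at 20 CPM or more, members higher and lower were 4 and 0 in the wild-type gate comparison, 3 and 3 in the knockout gate comparison and 4 and 2 for genotype in unselected cells, and 1 was higher in gated cells. With a pseudocount of 5 CPM, 2 were higher in the knockout gate comparison, beside 7.73% of all genes. For genotype in gated cells 1 was higher, beside 6.07%. Spike-in scaling gave 13 higher in the wild-type gate comparison and 30 higher and 3 lower in the knockout one. For genotype in gated cells it gave 7 higher and 3 lower, with the shares of all genes as given above for that scaling. Its medians were 1.303 for the knockout gate, -0.1973 for genotype in unselected and 0.4448 in gated cells. The knockout gate median was 0.2577 with TMM factors, 0.2349 with size factors and 0.2336 in cells with 2000 to 4000 detected genes. Without the highest cell of each gene, 8 members were higher with the knockout gate, beside 17.3% of all genes. For genotype in gated cells 3 were lower, beside 10.0%. Without cells that had 3 or more border-associated macrophage markers (66, 50, 75 and 15 cells left), 5 were lower with the wild-type gate, beside 24.2% of all genes, and 7 higher for genotype in gated cells, beside 17.3%.

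Among named members, 11 values changed sign. Without the marker-positive cells these were Rab33b at 0.04728 and Rab3d at -0.5526 in the knockout gate comparison, and Rab3d at -1.329 and Rab43 at 0.1227 for genotype in gated cells. In cells with 2000 to 4000 detected genes (37, 52, 42 and 35 cells), they were Rab13 at 1.68 with the wild-type gate, Rab33b at 0.2993 with the knockout gate, and for genotype in unselected cells Rab19 at -1.091, Rab21 at -0.1496, Rab33b at -1.701 and Rab35 at 0.005316. Without its highest cell, Rab19 was at -0.0369 for genotype in unselected cells. With 1 plate per group no replicate could be left out. No paired analysis was possible because each group is 1 sample and no result comes from a test. The floor of 3 counts over a group corresponds to 0.053 to 0.077 CPM.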
